A study of Mus musculus with 12 samples.

Results

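The genes described here encode cadherins, contactins and the adhesion proteins of axons and synapses. Their members were chosen by symbol: the numbered cadherins without Cdh5 and Cdh16, which serve as endothelial and kidney markers, Cntn1 to Cntn6, the Cntnap genes 1 to 5 with the copies 5a and 5b, Dscam, Dscaml1, Sdk1, Sdk2, the neurexins, Nlgn1 to Nlgn3, L1cam, Nrcam, Nfasc, Chl1, Ncam1 and Ncam2. These were 49 of the 38720 genes listed in the deposited tables, and the rule holds no threshold on a measured value. RNA was sequenced from P0 retinas of C57/BL6 mice in 4 groups of 3 libraries. RGCs had been pulled out of dissociated retinas with magnetic beads that bind CD90 (Thy-1), a surface protein of RGCs, and the cells left behind are called non-RGCs. The knockout groups (mKO RGC and mKO non-RGC) carried Ezh2 alleles whose SET-domain exons are flanked by loxP sites, with Cre knocked in at Math5, and the control groups (WT RGC and WT non-RGC) were labelled wild type. Ezh2 is the histone methyltransferase of polycomb repressive complex 2. Math5-Cre is active in only part of the RGCs and also in some cells of other retinal lineages, so that each mKO library could hold cells with an intact Ezh2. Each library came from its own RNA extraction, and how many pups gave each extraction is not given in the sources used here, so the p-values measure the spread between these libraries.

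Cadherins bind the same or a related cadherin on the next cell and are anchored inside the cell by catenins. Type I and type II cadherins are combined by retinal neurons to sort cell bodies, to steer dendrites and to choose layers in the inner plexiform layer. Contactins are lipid-anchored immunoglobulin proteins that work in cis with contactin-associated proteins (Caspr) and with the L1 family (L1cam, Nrcam, Nfasc, Chl1), which carry axon growth, fasciculation and the later node of Ranvier. Dscam, Dscaml1, Sdk1 and Sdk2 give self-avoidance and lamina choice to retinal neurons, and the NCAM proteins promote axon outgrowth. Neurexins on the presynaptic side bind neuroligins on the postsynaptic side. Nlgn1 is mainly found at excitatory synapses and Nlgn2 at inhibitory ones.

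The libraries held 7139633 to 13014004 reads on genes. Values below are reads divided by the size factor of the library, called normalised read counts, and the libraries of a group are lettered A to C from the deepest to the shallowest. Thy1, the sorting antigen, stood at 2075 to 2486 in WT RGC, 1377 to 1406 in mKO RGC, 70.0 to 95.3 in mKO non-RGC and 1.97 to 9.70 in WT non-RGC on the scale set over all 12 libraries. The summed count of 12 RGC markers was 30439.7 to 34581 in WT RGC, 23068 to 23852 in mKO RGC, 6275 to 8390.1 in mKO non-RGC and 5709 to 6129 in WT non-RGC, so the RGC libraries matched their label and the mKO ones had less of the marker RNA. In these bulk samples fewer cells of a type and less RNA per cell cannot be told apart. The markers of other cells were not absent from RGC libraries: the 9 progenitor markers summed to 13098 to 20819.5 in WT RGC and 12693 to 13792 in mKO RGC, beside 25137 to 31904 in WT non-RGC, and 0 of the 9 was at 0 in any of the 4 groups. Between genotypes, 10 of the 12 RGC markers were lower in mKO RGC and 8 of the 12 were higher in mKO non-RGC. Of the 6 kidney markers listed, 4 of 5 tested were lower in mKO RGC and 3 of 4 in mKO non-RGC. Their sums overlapped in RGC (141 to 219 in mKO, 168 to 268 in WT). In non-RGC they overlapped as well (191 to 446 in mKO, 339 to 378 in WT). Of 6 markers of microglia and blood 3 were higher in each fraction of mKO. Their sum overlapped in RGC (769 to 1567 in mKO, 1329 to 1891 in WT). It was higher in mKO non-RGC (408 to 527 against 90.5 to 229). Over all genes 16.3% were higher and 21.2% lower in mKO RGC, and 4.18% and 6.43% in mKO non-RGC. Ezh2 itself, counted over the whole gene and not over the floxed exons, was at 1354, 1476 and 1443 in mKO RGC and 1189.9, 1206 and 1678 in WT RGC (log2 fold change 0.09 ± 0.13, adjusted p = 0.637), which does not check the deletion. Without WT RGC library C, described next, it was higher in mKO RGC (0.25 (adjusted p = 0.00419)). Library C of WT RGC stood apart from its partners. Its progenitor sum was 20819.5, against 13098 and 14045 in A and B, and its photoreceptor sum was 9447 against 7112 and 7184. Counts of members are given with and without WT RGC library C. The non-RGC C libraries also differed from their partners. In WT non-RGC the progenitor sum was 31904 in C, against 25137 and 25448 in A and B. The chi-square per degree of freedom between reads of C and those of A and B was 18.0 and 21.4 in WT RGC. It was 22.9 and 19.3 in WT non-RGC and 26.8 and 10.3 in mKO non-RGC. Between A and B these groups had 5.02, 5.31 and 9.06.

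The members share a gene structure that the choice by symbol did not use. They span a median of 273.1 kb (10.1 kb for Cdh24 to 2245 kb for Cntnap2), against 22.5 kb over 15159 tested genes with an annotation, and 37 of the 49 (75.5%) are longer than 100 kb, against 14.5% of the tested genes. Their exons sum to a median of 8486 bases, against 4250. The GC content of the longest transcript ran from 33.8% (Cdh10) to 62.7% (Cdh22), with a median of 47.5% against 49.9%. GC content matters for what follows, because the mKO and WT libraries differed in how counts moved with it. A mean normalised read count of at least 10 in one of the 2 groups compared was needed for a test. With it, 47 of the 49 members were tested between genotypes in RGCs and between fractions, and 43 between genotypes in non-RGCs. Cdh17, an intestinal cadherin, had 1, 0 and 0 reads in the WT RGC libraries and Cdh19, a cadherin of Schwann cell precursors, had 0, 1 and 1, and both stayed untested. Cdh15, Cdh23, Cntnap3 and Cntnap5b passed through the RGC libraries alone, and Cdh26 passed in RGCs through the mKO group alone.

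Promoter sequence is shown for 3 members, since polycomb repressive complex 2 is known to favour promoters rich in CG dinucleotides. Nlgn1 and Nlgn2 are the neuroligins called in opposite directions between genotypes in RGCs, and Chl1 had the widest gap between fractions. Neither neuroligin passed in RGCs once the GC trend was removed, as given below. A link between these promoters and any change was not tested. Each window has 300 bases around the RefSeq start (build GRCm38.p6), read on the strand of the gene, with CG dinucleotides in capitals. For Nlgn1, which has 2 windows, the one farther upstream is given. They are chr3:26331860-26332159 (minus strand), chr11:69837735-69838034 (minus strand) and chr6:103510626-103510925 (plus strand).
Nlgn1: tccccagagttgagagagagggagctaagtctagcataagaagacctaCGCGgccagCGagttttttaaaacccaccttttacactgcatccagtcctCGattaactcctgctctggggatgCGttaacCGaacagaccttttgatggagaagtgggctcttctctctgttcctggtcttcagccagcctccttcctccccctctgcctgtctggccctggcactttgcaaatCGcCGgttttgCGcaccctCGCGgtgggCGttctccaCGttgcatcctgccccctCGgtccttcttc
Nlgn2: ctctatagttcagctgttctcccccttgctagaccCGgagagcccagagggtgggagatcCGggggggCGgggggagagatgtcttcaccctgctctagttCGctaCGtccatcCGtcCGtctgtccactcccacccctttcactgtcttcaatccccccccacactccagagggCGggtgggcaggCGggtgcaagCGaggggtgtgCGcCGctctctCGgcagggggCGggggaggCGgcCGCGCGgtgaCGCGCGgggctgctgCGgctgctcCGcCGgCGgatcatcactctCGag
Chl1: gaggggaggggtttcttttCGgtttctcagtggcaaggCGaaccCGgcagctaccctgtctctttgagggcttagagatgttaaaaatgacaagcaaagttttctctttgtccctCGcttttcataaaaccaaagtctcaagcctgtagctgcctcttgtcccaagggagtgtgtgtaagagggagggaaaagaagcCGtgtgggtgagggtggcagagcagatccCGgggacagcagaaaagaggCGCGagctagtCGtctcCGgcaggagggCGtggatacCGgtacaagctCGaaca
The motif searched was CG, which reads the same on both strands. The Nlgn1 window held 14 of them, a number reached by 36.3% of all 32851 windows of this length. The Nlgn2 window held 26, reached by 16.9%, and the Chl1 window held 13, reached by 37.9%. A window was found for 33 of the 49 members. Over their 45 windows the median was 12 CG, against 7 over all windows, and 55.6% of the member windows held at least 10, against 43.5% of all.

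The first comparison set WT RGC against WT non-RGC, to see which adhesion genes follow the RGC fraction. The adhesion genes stood mostly on the RGC side. Of the 47 tested, 30 were higher in WT RGC and 3 were lower at an adjusted p under 0.05 (limma), where 26.4% and 22.6% of all 16502 genes tested were higher and lower. The median difference of the members was 1.41 on the log2 scale, against -0.03 over all genes. With no filter on low values, all 49 members were tested and again 30 were higher and 3 lower, against 16.2% and 12.5% of all genes with a read. Among 42 members that reached the mean of 10 in each of both fractions, 26 were higher and 3 lower. The shares of all genes under that stricter filter were not computed. Leaving out any 1 of the 12 libraries in the joint fit, WT RGC library C among them, gave 29 to 32 higher and 3 to 4 lower. Between mKO RGC and mKO non-RGC, 34 of 47 were higher in RGC and 3 were lower, against backgrounds of 29.1% and 25.4%. This contrast compares no WT library but shares the scale, filter and estimate of spread of the 12-library fit.

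**Figure D1:**
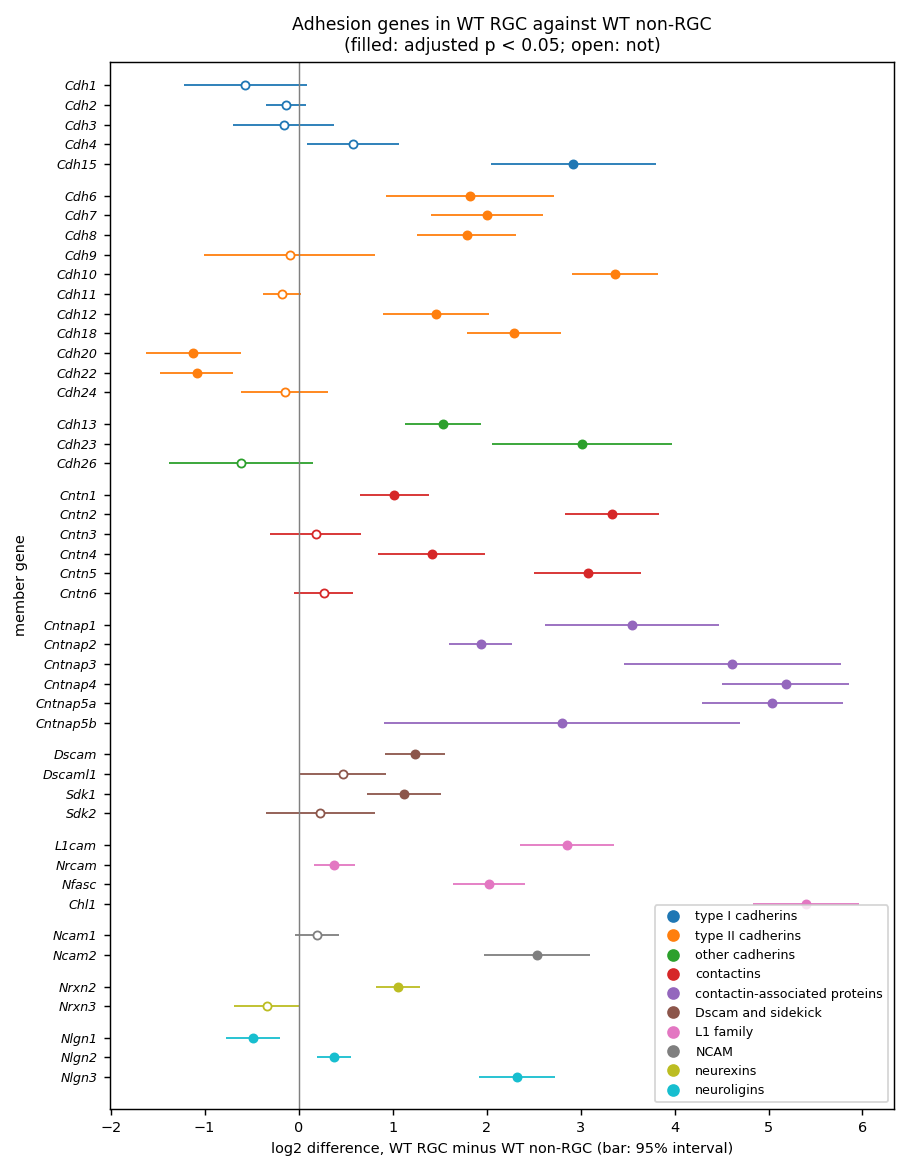
Log2 difference between WT RGC and WT non-RGC (horizontal axis, mean of 3 libraries against 3, with the 95% interval) for 46 tested members, grouped and coloured by family. Filled points passed an adjusted p of 0.05: all 6 contactin-associated proteins and all 4 L1 family members lie to the right of 0, and Cdh20, Cdh22 and Nlgn1 are the filled points to the left.

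The contactin-associated proteins and the L1 family were higher in RGCs, in 6 of 6 and 4 of 4 members. Among these, Cntnap3 and Cntnap5b had passed the filter through the RGC libraries alone, where they are high, so their calls add no support. Cntnap5b was called in 9 of 12 fits that left out 1 library (limma, adjusted p up to 0.0783). Chl1, a close homologue of L1 that guides axons, had normalised read counts over the 12 libraries of 2433, 2525 and 1386 in WT RGC and 50.3, 49.3 and 43.1 in WT non-RGC (log2 difference 5.40 ± 0.26, adjusted p = 6.59e-09), a 42.2-fold difference. Cntnap4, which is known from the axons of inhibitory and dopaminergic neurons, stood at 563, 615 and 366 against 20.1, 13.8 and 7.54 (log2 difference 5.18 ± 0.31, adjusted p = 4.16e-08). Cntnap5a stood at 655, 729.7 and 298 against 19.2, 19.7 and 8.62 (log2 difference 5.04 ± 0.35, adjusted p = 1.44e-07). All 3 were low outside the sorted fraction, and their groups lay far apart. L1cam was high in both fractions by comparison, at 6481, 6626 and 4825 in WT RGC and 1036, 979 and 538 in WT non-RGC (log2 difference 2.86 ± 0.23, adjusted p = 5.82e-07). Nrcam, the L1 protein that anchors at nodes and steers commissural axons, differed least in its family (log2 difference 0.38 ± 0.10, adjusted p = 0.0076), and Nfasc lay between (log2 difference 2.02 ± 0.18, adjusted p = 1.28e-06). Cntnap3 (log2 difference 4.62 ± 0.53, adjusted p = 1.46e-05), Cntnap1 (Caspr, log2 difference 3.54 ± 0.43, adjusted p = 2.08e-05), Cntnap5b (log2 difference 2.81 ± 0.88, adjusted p = 0.0173) and Cntnap2 (Caspr2, log2 difference 1.94 ± 0.16, adjusted p = 5.28e-07) completed the Caspr family. Cntnap3 had 6, 6 and 1 reads in WT non-RGC, so that the size of its difference depends on the pseudocount.

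Contactins were divided. Cntn2 (TAG-1, an early axonal glycoprotein) had 1931, 1891 and 1247 in WT RGC and 115, 155 and 245 in WT non-RGC (log2 difference 3.33 ± 0.23, adjusted p = 1.51e-07), and Cntn5, Cntn4 and Cntn1 were also higher, by 3.08, 1.41 and 1.02 on the log2 scale. Cntn3 and Cntn6 did not pass the test, with 95% intervals of the log2 difference of -0.30 to 0.67 and -0.05 to 0.58. Among the type II cadherins, 6 of 11 tested were higher and 2 were lower. Cdh10 led at 3.37, followed by Cdh18, Cdh7, Cdh6, Cdh8 and Cdh12 at 2.29 to 1.47. On the other side Cdh20 had 523, 602 and 1048 in WT RGC and 1209, 1349 and 2081 in WT non-RGC (log2 difference -1.12 ± 0.24, adjusted p = 0.00156), and Cdh22 had 384, 391 and 624 against 842, 898 and 1187 (log2 difference -1.09 ± 0.18, adjusted p = 0.000272). For both of them the highest RGC value was that of library C. Of 5 type I cadherins, Cdh15 alone passed (log2 difference 2.92 ± 0.41, adjusted p = 6.98e-05), while N-cadherin (Cdh2) was nearly level, with a 95% interval of -0.34 to 0.07. T-cadherin (Cdh13), which lacks a cytoplasmic tail, and the hair-cell tip-link cadherin Cdh23 were higher by 1.54 and 3.02. Cdh15 and Cdh23 had passed the filter through the RGC libraries alone, where they are high, so their calls add no support.

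Among the synaptic pair, Nlgn3 and Nrxn2 followed the RGC fraction and Nrxn3 and Nlgn1 did not. Nlgn3 stood at 1724, 1794 and 992 in WT RGC and 269.7, 283 and 318 in WT non-RGC (log2 difference 2.32 ± 0.19, adjusted p = 5.68e-07). Nrxn2 (log2 difference 1.06 ± 0.11, adjusted p = 4.93e-06) and Nlgn2 (log2 difference 0.38 ± 0.08, adjusted p = 0.00198) were higher in RGCs by less, whereas Nlgn1 was lower (log2 difference -0.49 ± 0.13, adjusted p = 0.00873), and Nrxn3 did not pass (log2 difference -0.34 ± 0.16, adjusted p = 0.0955). Once each library had been freed of its trends against GC content and reads per base, neither Nlgn1 nor Nlgn2 passed (adjusted p = 0.0758 and 0.218). Dscam (1.24) and Sdk1 (1.12) were higher in RGCs, and Dscaml1 (95% interval 0.00 to 0.93) and Sdk2 (-0.35 to 0.81) did not pass. Ncam2 was higher by 2.54 and Ncam1 did not pass (-0.03 to 0.43).

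Per length, as RPKM (reads per length of exon and per total of reads on genes, computed here), the order of levels differed between the fractions. The counts are labelled as freed of duplicate reads, and the part of that step in this order was not tested. Nlgn2 was the highest member in WT RGC at 78.2, 79.5 and 72.7, and L1cam followed at 72, 72.1 and 56.5 with every library below every Nlgn2 value. Nrxn2 (45.1, 44.7 and 36.5), Ncam1 (40.1, 41.6 and 39.3), Cdh4 (39, 40.1 and 29.8) and Dscam (39.3, 40.0 and 27.4) came next and overlapped one another. These 4 genes, which code for a neurexin, an NCAM, R-cadherin and a self-avoidance receptor, had the highest means of their families. So had Cntn1 (mean 25.7 ± 5.0, SD, n = 3), Cdh11 (18.8 ± 0.536), Cntnap2 (16.2 ± 3.22) and Cdh13 (6.28 ± 1.45) in theirs. In WT non-RGC, Nlgn2 also led at 63.5, 65.3 and 59.2, and Ncam1 (37.4 ± 4.11), Cdh2 (37.4 ± 3.98) and Cdh20 (33.5 ± 8.71) followed within each other's spread. L1cam was at 10.2 ± 3.57 there. In library C, Cdh2 (35) stood above Cdh4 and Cdh20 (22.5) above Cdh11 (19.4), so that these family orders do not hold in every library. At the low end, Cdh17, Cdh19, Cdh26, Cdh23 and Cdh9 had means under 1 RPKM in all 4 groups.

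Library C of WT RGC departed from A and B in most of these genes. Of 47 members, 41 were lower in C than in the mean of A and B on the log2 scale, 28 of them by more than 1.5-fold, and 2 were higher by more than that, Cdh20 and Cdh22 (0.90 and 0.69). The difference of C ran from -1.43 to 0.90, whereas A and B differed from each other by -0.47 to 0.26. Across the members, the departure of C went with the mKO RGC minus mKO non-RGC difference (Pearson r = -0.68, Spearman rho = -0.67, a description over 47 genes). That difference compares no WT library but is on the same scale, set over all libraries. In mKO RGC, library C differed from its partners by -0.30 to 0.44. The progenitor and photoreceptor sums, given above, were highest in the same WT library, and their part in these values was not tested.

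**Figure D2:**
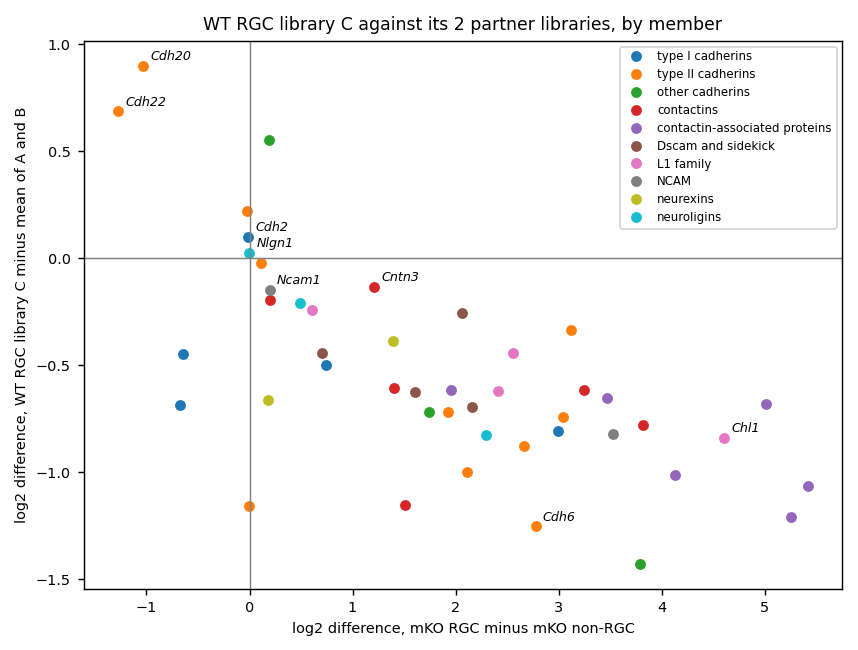
Each point is 1 of 46 members, coloured by family. The horizontal axis is the log2 difference between mKO RGC and mKO non-RGC, and the vertical axis is the log2 difference between WT RGC library C and the mean of A and B; genes far to the right, such as Chl1, lie below 0, and Cdh20 and Cdh22, at the left, lie above it.

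The second comparison set mKO RGC against WT RGC, to ask what differs between the genotypes in RGCs. The Cre knock-in at Math5 goes with the mKO label, so its part cannot be told apart from that of Ezh2 loss. The adhesion genes did not move as a block. Of 47 tested, 7 were higher and 8 lower in mKO at an adjusted p under 0.05, where 16.3% of all 16085 genes tested were higher and 21.2% lower, and the members' share (14.9% and 17.0%) was near that background. Their median log2 fold change was 0.11 against -0.00 over all genes. Higher were Cntn3, Cdh12, Cdh7, Cntnap4, Cdh18, Nlgn1 and Cntn6, and lower were Nlgn2, Nrxn2, Cdh22, Cdh24, Ncam1, Cdh2, L1cam and Cdh11. The split depends on scaling: dividing by total reads gave 9 higher and 6 lower (23.9% and 13.9% of all genes), and scaling by the upper quartile gave 9 and 4 (28.8% and 10.4%), with the median of all genes moved to 0.12 and 0.20. Under the latter Cdh11 had a log2 fold change of 0.02. The members that did not pass ran from -0.38 (Cntnap1) to 0.93 (Cdh9). The RGC marker sum, which was lower in mKO RGC, and library C moved with this contrast, and the part of the former was not tested.

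Among axonal members, Cntn3 and Cntnap4 were higher in mKO RGC. Cntn3 (BIG-1, an axonal contactin; ENSMUSG00000030075, chromosome 6, 102162655 to 102573101) had normalised read counts of 196, 178 and 179.7 in mKO and 77, 106 and 86.4 in WT (log2 fold change 1.04 ± 0.16, adjusted p = 0.00278). The groups did not overlap, and the difference stood at 1.02 without WT library C and at 0.73 with the GC trend of each library removed (adjusted p = 0.0014 and 0.0224). With the trends of GC and reads per base both removed it was 0.52 (adjusted p = 0.0591). Cntnap4 (ENSMUSG00000031772, chromosome 8, 112570043 to 112882717) had 829.8, 846 and 854 in mKO and 574, 623 and 389.8 in WT (log2 fold change 0.70 ± 0.17, adjusted p = 0.0157). Its mKO libraries were tightly grouped and all above the WT ones, and the difference was 0.66 with the GC trend removed (adjusted p = 0.043) and 0.59 with both trends removed (adjusted p = 0.0847). Leaving out mKO library A, B or C each time took its adjusted p past the threshold, to 0.058 at most. Cntn6 (NB-3) had 469, 492 and 452 in mKO and 375, 417 and 362 in WT (log2 fold change 0.29 ± 0.08, adjusted p = 0.0321) and 0.06 with the GC trend removed (adjusted p = 0.644). L1cam (ENSMUSG00000031391, chromosome X, 73853778 to 73896105) was lower in mKO, at 4336, 4519 and 4774 against 6609, 6712 and 5135 (log2 fold change -0.43 ± 0.11, adjusted p = 0.0203), with WT library C the lowest of its group and still above the mKO values. Its difference was -0.22 after removal of the GC trend (adjusted p = 0.255). By family, 2 of 6 contactins, 1 of 6 contactin-associated proteins and 0 of 4 L1 proteins were higher, and 0, 0 and 1 were lower. Chl1, Nrcam and Nfasc did not pass, with 95% intervals of the log2 fold change of -0.24 to 0.70, -0.17 to 0.16 and -0.41 to 0.31.

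Of the cadherins, 3 type II members were higher, 3 type II members lower, and the type I member Cdh2 lower. Cdh12 had 455, 477 and 503 in mKO RGC and 293, 325 and 175 in WT RGC (log2 fold change 0.90 ± 0.22, adjusted p = 0.0178). Cdh7 had 469, 461 and 448 against 346, 303 and 169 (log2 fold change 0.81 ± 0.25, adjusted p = 0.0386). Cdh18 had 434, 421 and 411 against 321, 328 and 203 (log2 fold change 0.60 ± 0.18, adjusted p = 0.0395). In all 3 the groups did not overlap and WT library C was the lowest of the 6, and without C the differences were 0.63, 0.50 and 0.38. After removal of the GC trend they were 0.46, 0.53 and 0.53, and none passed. N-cadherin had 2342, 2407 and 2418 in mKO and 3066, 3163 and 3496 in WT (log2 fold change -0.44 ± 0.06, adjusted p = 0.00228). Cdh11 (OB-cadherin) had 1899, 1874 and 1788 against 2050.5, 2091 and 2138 (log2 fold change -0.18 ± 0.05, adjusted p = 0.0313). Cdh2 was called in 6 of 6 fits that left out 1 library and Cdh11 in 1 of 6 (adjusted p up to 0.122), and with the GC trend removed their log2 fold changes were -0.39 and -0.34 (adjusted p = 0.00895 and 0.00599). Cdh22 had 300.2, 315 and 300.2 against 391, 396 and 664 (log2 fold change -0.62 ± 0.20, adjusted p = 0.0486). Cdh24 had 431, 478 and 508 against 674, 579.7 and 763 (log2 fold change -0.50 ± 0.12, adjusted p = 0.0144). These are the cadherins of the highest GC content (62.7% and 61.2%), and with the GC trend removed their differences were 0.01 and 0.05, neither past the threshold.

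**Figure D3:**
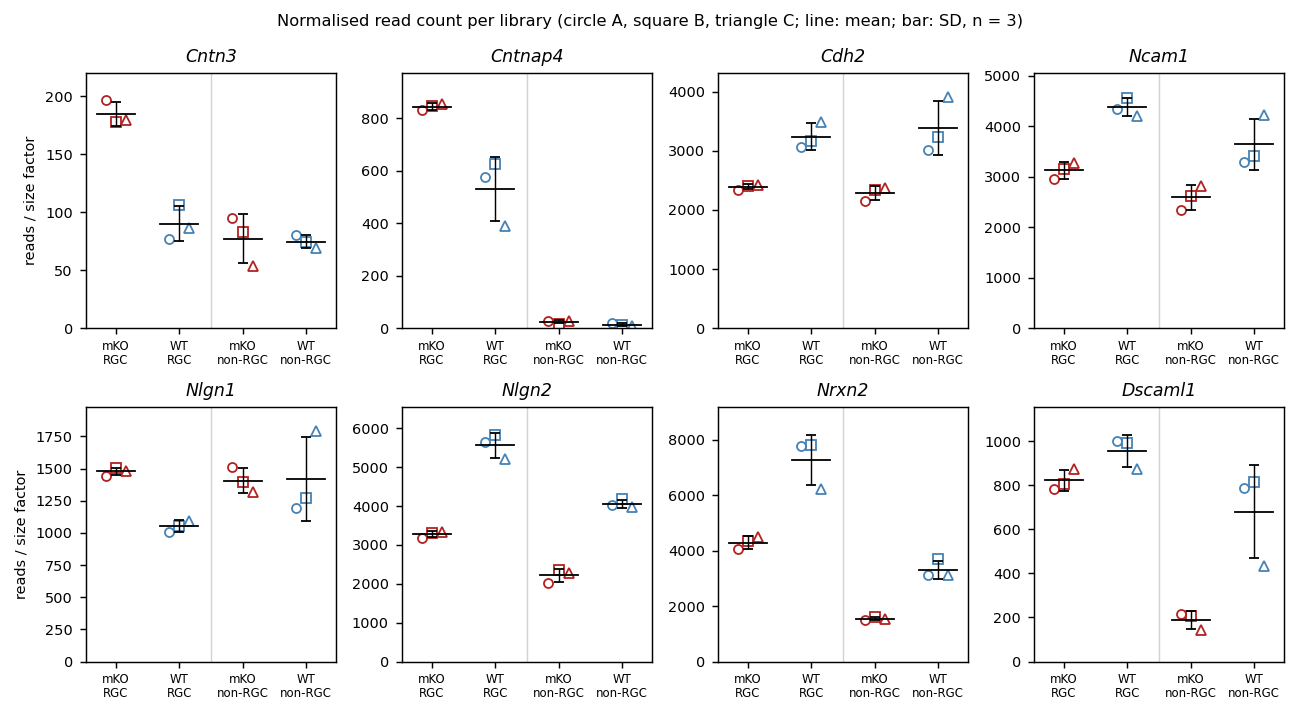
Normalised read counts (vertical axis, reads divided by the size factor; RGC and non-RGC scaled apart) of 8 members in each of the 12 libraries, with mKO in red and WT in blue, circle, square and triangle for libraries A, B and C, and the mean and SD (n = 3) in black. Nlgn2 and Nrxn2 lie lower in mKO than in WT in both fractions, Nlgn1, Cntn3 and Cntnap4 lie higher in mKO RGC, and Dscaml1 is lowest in mKO non-RGC.

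A neurexin and a neuroligin had the largest falls among the members in RGCs, and another neuroligin was higher. Nlgn2 (ENSMUSG00000051790, chromosome 11, 69823122 to 69837784) had 3189, 3321 and 3328 in mKO and 5652, 5826 and 5206 in WT (log2 fold change -0.76 ± 0.06, adjusted p = 0.000644). Nrxn2 (ENSMUSG00000033768, chromosome 19, 6418731 to 6544169) had 4056, 4338 and 4491 in mKO and 7780.2, 7822 and 6244 in WT (log2 fold change -0.76 ± 0.10, adjusted p = 0.00162). Nlgn1 (ENSMUSG00000063887, chromosome 3, 25426215 to 26332460) had 1445, 1506 and 1481 in mKO and 1003, 1052 and 1096 in WT (log2 fold change 0.49 ± 0.06, adjusted p = 0.00103). The 2 that were lower have transcripts of 60.7% and 62.4% GC, and Nlgn1, which was higher, has one of 38.9%. With the GC trend of each library removed, the fold changes of Nlgn2, Nrxn2 and Nlgn1 were -0.22, -0.14 and 0.07 on the log2 scale (adjusted p = 0.0674, 0.399 and 0.398), and with both trends removed they were 0.07, 0.02 and -0.02. Nrxn3 and Nlgn3 did not pass (-0.16 to 0.64 and -0.27 to 0.69 as 95% intervals), and in both the lowest of the 6 libraries was WT library C. Ncam1 was lower in mKO, at 2950.03, 3156 and 3274 against 4345, 4565 and 4211 (log2 fold change -0.48 ± 0.06, adjusted p = 0.00145), and kept that side with the GC trend removed (-0.42, adjusted p = 0.00851) and without WT library C (-0.51, adjusted p = 0.000216).

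The genotype difference went with GC content across the members. In RGCs the log2 fold change and the GC content of the longest transcript had a Spearman rho of -0.74 over the 47 members and of -0.63 over 15159 genes, a description across genes that share libraries. The 17 members under 45% GC had a median of 0.29, with 5 higher and 1 lower. The 19 between 45% and 55% had a median of -0.01, with 2 and 3. The 11 over 55% had a median of -0.30, with 0 and 4. The shares of all genes called within these GC ranges were not computed, so these counts are not a trait of the members. After removal, rho was 0.01, and 2 members were higher (Cntn3, Cntnap4) and 3 lower (Cdh2, Cdh11, Ncam1), where 6.49% and 9.65% of all genes were called. With the trends of GC and reads per base removed, 0 were higher and 4 were lower, these 3 and Cdh10, where 3.56% and 6.02% of all genes were called higher and lower (-0.55, adjusted p = 0.0309). Whether the GC trend came from the libraries or from the cells cannot be told apart in this design. In non-RGCs rho was -0.51 over 43 members and -0.43 over 14473 genes.

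**Figure D4:**
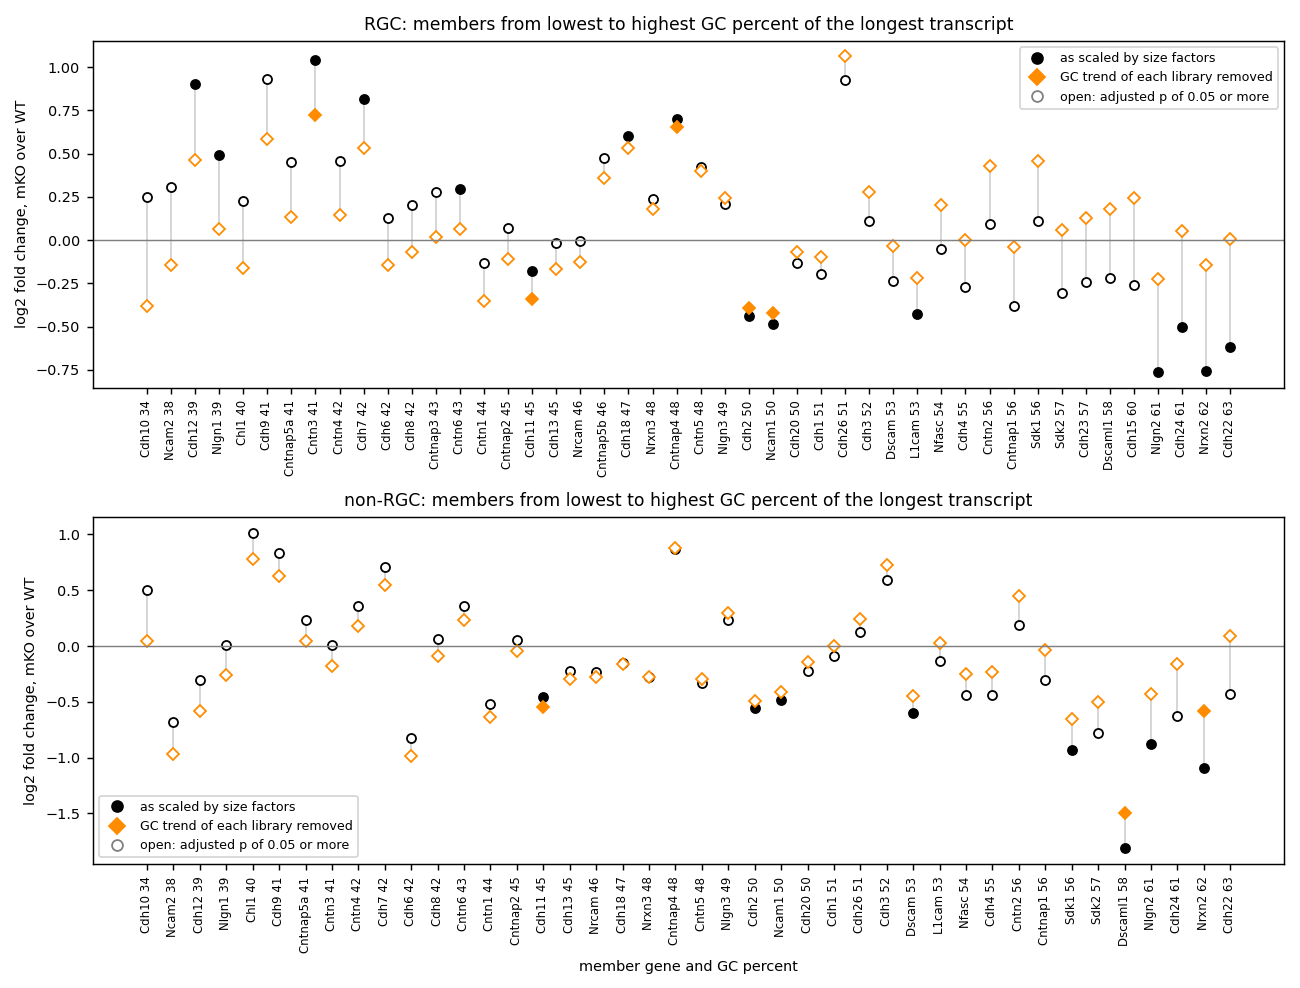
Log2 fold change between mKO and WT (vertical axis) for each member, placed from the lowest to the highest GC percent of the longest transcript (number after each symbol), in RGCs (top, 46 members) and non-RGCs (bottom, 42 members). Black circles are counts scaled by size factors and orange diamonds counts with the GC trend of each library removed; filled symbols passed an adjusted p of 0.05. The black circles fall from left to right, and the orange ones in RGCs do not.

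Without WT library C, more members were called. There were 8 higher and 17 lower in mKO RGC, against 23.1% and 27.6% of all genes. The 9 additional members that were lower were Dscam (-0.42, adjusted p = 0.000254), Cdh4 (-0.42, 0.000317), Cntn1 (-0.31, 0.00123), Cntnap1 (-0.58, 0.00471), Cdh13, Cdh23, Dscaml1, Nfasc and Sdk2, the last 5 by -0.23 to -0.70 on the log2 scale. Dscam had 3174, 3247 and 3419.7 in mKO and 4324, 4459.6 and 2981 in WT, so that the mKO values lay between library C and the libraries A and B. With the GC trend removed as well, the counts were 7 and 17, against 15.4% and 17.5%, and partly of other members. Cdh6, Cdh8, Cdh10, Cntnap2, Cntnap5a, Chl1 and Ncam2 were then called lower, from -0.55 (Cdh6) to -0.26 (Cntnap5a), and Cdh22 was called higher (0.25, adjusted p = 0.0279). The additional member that was higher without C, Cdh26 (1.13, adjusted p = 0.0336), had only 14, 11.1 and 16.9 in mKO and 6.08, 5.43 and 9.34 in WT, and as it passed the filter through the group where it is high, its call supports nothing. Leaving out mKO library A, B or C took the number of members called higher from 7 to 2 each time, and the number called lower from 8 to 4, 5 and 6. Over all genes the shares called higher were then 9.38%, 9.47% and 8.93% and the shares called lower 14.3%, 15.6% and 14.7%.

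The third comparison set mKO non-RGC against WT non-RGC. Of 43 members tested, 0 were higher and 8 lower in mKO, where 4.18% of all 15326 genes were higher and 6.43% lower. The 8 were Dscaml1, Nrxn2, Sdk1, Nlgn2, Dscam, Cdh2, Ncam1 and Cdh11, which took in 3 of the 4 Dscam and sidekick genes, 1 neurexin, 1 of 3 neuroligins and 0 of 6 contactins. The members that did not pass ran from -0.83 (Cdh6) to 1.02 (Chl1). The count of 0 higher came from limma, and with voom weights 0 were higher as well; 17 of the 43 had an unadjusted p under 0.05 in either direction. Dividing by total reads gave 1 higher and 5 lower, against 8.78% and 2.95% of all genes, with the median of all genes moved from -0.03 to 0.15. With the GC trend removed, 0 were higher and 3 lower (Dscaml1, Nrxn2, Cdh11), against 1.02% and 0.685%.

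Dscaml1 (ENSMUSG00000032087, chromosome 9, 45426628 to 45753712), which keeps rod-pathway neurons apart, had the largest fall. It stood at 214, 208 and 144 in mKO non-RGC and 789, 816 and 436 in WT non-RGC (log2 fold change -1.81 ± 0.26, adjusted p = 0.00734). The WT values were uneven, with library C about midway between its partners and the mKO libraries, yet all of them were above the mKO ones. With the GC trend removed the fold change was -1.49 (adjusted p = 0.0366), and leaving out any 1 library kept it between -2.10 and -1.63 with an adjusted p of at most 0.038. Sdk1, a lamina-specific synaptic adhesion protein, had 371, 345 and 253 against 621, 626 and 576 (log2 fold change -0.93 ± 0.17, adjusted p = 0.0151). Dscam had 1068, 1057 and 946 against 1394, 1699 and 1578 (log2 fold change -0.60 ± 0.13, adjusted p = 0.0211). Neither group pair overlapped, and with the GC trend removed neither passed (adjusted p = 0.0936 and 0.0918). The 10 amacrine and horizontal cell markers summed to 11252 to 11732 in mKO non-RGC and 14244 to 15447 in WT non-RGC. Of the 10, 3 were lower, 0 higher and 0 at 0, where 6.43% of all genes were lower. Other sums were also lower in mKO without overlap: photoreceptor (9503 to 10948 against 12582 to 13922) and progenitor (19886 to 23940.5 against 25137 to 31904). So was that of endothelial and pericyte markers (5513 to 6173 against 6977 to 7384). Those of RGC, pigment epithelium, and microglia and blood markers were higher. The part of any of these lists in the falls was not tested. Sdk2 was more variable and did not pass, at 1156, 848 and 479 against 1271, 1081 and 1735 (log2 fold change -0.78 ± 0.29, adjusted p = 0.111).

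Nrxn2 and Nlgn2 fell in this fraction too. Nrxn2 had 1497, 1605 and 1531 in mKO and 3112, 3689 and 3110.4 in WT (log2 fold change -1.09 ± 0.11, adjusted p = 0.00392). Nlgn2 had 2024, 2345 and 2282 against 4029, 4179 and 3966 (log2 fold change -0.87 ± 0.10, adjusted p = 0.0048). After removal of the GC trend, Nrxn2 still passed (-0.58, adjusted p = 0.0436) and Nlgn2 did not (-0.43, adjusted p = 0.0562). Nlgn1, which was higher in mKO RGC, was nearly level here, with 1511, 1392 and 1316 in mKO and 1190.1, 1271 and 1794 in WT (95% interval -0.35 to 0.37). Cdh2 had 2158, 2344 and 2367 against 3019.8, 3239 and 3907 (log2 fold change -0.56 ± 0.12, adjusted p = 0.0242). Ncam1 had 2331, 2627 and 2812 against 3291, 3408 and 4227 (log2 fold change -0.49 ± 0.13, adjusted p = 0.0428). Cdh11 had 1715, 1678 and 1503 against 2037, 2226 and 2473 (log2 fold change -0.46 ± 0.12, adjusted p = 0.0402). In these 3, as in RGCs, every mKO library was below every WT library. Chl1, an RGC-side gene, had 111, 127 and 60.7 in mKO and 49.6, 48.4 and 41.7 in WT and missed the threshold (log2 fold change 1.02 ± 0.31, adjusted p = 0.0623), beside RGC marker sums of 6275 to 8390.1 and 5709 to 6129 in the same libraries (8 of 12 markers higher, 0 lower), whose part in it was not tested. The retinal pigment epithelium markers were also higher in mKO, at 1083 to 1227 against 257 to 427 in non-RGC and 279.8 to 428 against 124 to 195 in RGC, and their part was not tested.

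The RGC and non-RGC contrasts share no library. As non-RGCs are the cells left after RGC capture, both fractions could come from the same retinas. Both contrasts also went with GC content over all genes (Spearman rho -0.63 in RGCs and -0.43 in non-RGCs). Of the 43 members tested in both, 8 were lower in each and 5 were lower in both (62.5% of either list): Cdh2, Cdh11, Ncam1, Nrxn2 and Nlgn2. In non-RGCs, Nrxn2 and Nlgn2 were called in 6 of 6 fits that left out 1 library, Cdh2 in 4, Ncam1 in 1 and Cdh11 in 0 (adjusted p for Cdh11 0.0512 to 0.149). Over all genes tested in both, 767 were lower in both, which is 22.6% of those lower in RGC and 77.9% of those lower in non-RGC. No member was called in opposite directions. The difference between the genotype effects of the 2 fractions, tested as an interaction over all 12 libraries, was called for 0 of 47 members in either direction (limma, 9 with an unadjusted p under 0.05), where 0% of all genes were called higher and 0.097% lower. Dscaml1 came nearest, with an effect in RGCs 1.59 ± 0.30 above that in non-RGCs on the log2 scale (95% interval 0.94 to 2.25, adjusted p = 0.0871), and 1.51 above it without WT RGC library C (adjusted p = 0.174). Its normalised read counts in RGCs were 784, 806 and 876 in mKO and 1001, 992 and 874 in WT.

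The intracellular and synaptic partners of these proteins were counted from lists of 10 catenins and ankyrins, 31 other synaptic adhesion genes and 15 scaffolds. Of 9 catenins and ankyrins tested in RGCs, 0 were higher and 3 were lower in mKO (limma, with 3 in either direction at an unadjusted p under 0.05), led by beta-catenin (Ctnnb1, 3113, 3215 and 3282 against 4575, 4728 and 5268, log2 fold change -0.60 ± 0.07, adjusted p = 0.000969) and plakoglobin (Jup, 2169, 2243 and 2249 against 3605, 3544 and 2967, log2 fold change -0.60 ± 0.08, adjusted p = 0.00196). These link cadherins to the cytoskeleton. Of 28 other synaptic adhesion genes tested in RGCs, 9 were higher and 7 lower, with Cadm4 (log2 fold change -0.60 ± 0.05, adjusted p = 0.000657) and Cadm3 (log2 fold change -0.52 ± 0.05, adjusted p = 0.000841) having the smallest adjusted p. Of 15 scaffold genes, 3 were higher and 2 lower, among them the postsynaptic scaffold Dlg4 (PSD-95, 2214, 2382 and 2368 against 3594, 3596 and 3359, log2 fold change -0.60 ± 0.06, adjusted p = 0.000698) and Dlg1 (log2 fold change 0.34 ± 0.08, adjusted p = 0.0135). Over all genes 16.3% were higher and 21.2% lower. With the GC trend removed, the counts higher and lower were 0 and 1 (Ctnnb1), 4 and 2, and 0 and 2 in the 3 lists, against 6.49% and 9.65% of all genes, with Jup at -0.14 (adjusted p = 0.31), Cadm4 at -0.09 (adjusted p = 0.247), Cadm3 at -0.29 (adjusted p = 0.0222) and Dlg1 at 0.13 (adjusted p = 0.28). Without WT RGC library C the counts were 0 and 6, 10 and 8, and 3 and 7, against 23.1% and 27.6%. In non-RGCs the counts were 0 and 1 of 9, 3 and 3 of 27, and 0 and 3 of 15, against 4.18% and 6.43% of all genes, with Flrt3 (log2 fold change 1.00 ± 0.14, adjusted p = 0.00638) and the neurexin-side phosphatase Ptprs (log2 fold change -0.73 ± 0.10, adjusted p = 0.00703) first among the synaptic partners. With the GC trend removed 0, 1 and 0 were higher and 0 were lower in each list. Between WT fractions, 6 of 9 catenins and ankyrins were higher in RGC and 2 lower, 17 of 28 synaptic partners higher and 4 lower, and 9 of 15 scaffolds higher and 1 lower, against 26.4% and 22.6% of all genes. Lrrtm3, a postsynaptic neurexin ligand, was the first of the partners (384, 388 and 245 in WT RGC and 18.3, 17.7 and 10.8 in WT non-RGC, log2 difference 4.36 ± 0.26, adjusted p = 3.34e-08), and the scaffold protein Apba1 (Mint1) stood at 5988, 6209.7 and 3816 against 523, 559.9 and 407 (log2 difference 3.40 ± 0.21, adjusted p = 5.06e-08).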

How the data were processed

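RNA of 12 libraries (mKO and WT, RGC and non-RGC, 3 each) from P0 retinas was converted with a kit that does not mark strand, so that reads of overlapping and antisense genes cannot be told apart, and reads of near-identical copies may be split. Per the study's methods and the submitters' processing notes, reads were aligned to mm10 with STAR 2.3.1z4 and counted with featureCounts. The deposited counts are labelled as primary alignments with duplicates removed. Such removal can hold down the counts of genes with many reads per base. Its part in the levels and fold changes was not tested. The 2 deposited tables hold, as signal, group means of read counts that the authors divided by DESeq size factors. The reads of each library were recovered here from the digits of those means, for 100% of the genes with reads, and gave the same size factors. Which replicate number belongs to which recovered library is not given, so letters by depth were used. The authors' comparison columns (fold changes, p-values) were not used, and 0 per-sample columns were left out.

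Genotypes were compared within each fraction by limma 3.58.1 (R 4.3.3, mean-variance trend) on log2(normalised count + 1), which understates folds of low genes, for genes whose mean reached 10 in 1 of the groups, over all genes with Benjamini-Hochberg adjustment. The fractions and the interaction came from a joint fit with size factors over 12 libraries. SE, 95% intervals and adjusted p are from these fits, and an exact permutation test of 3 against 3 libraries cannot go below 0.1. Lengths and GC came from GENCODE M21. The GC trend of each library was removed by lowess (span 0.3, genes whose mean reached 50). Alternatives were the pseudocount, filter, scaling, voom weights, GC and reads-per-base trends, call rule and leaving out each library. Removing GC and WT RGC library C together, and the interaction without that library, were chosen after seeing the data. Python 3.11.15, numpy 2.4.6, pandas 2.3.3 and matplotlib 3.10.9 were used.

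Members and gene lists were chosen with earlier results of these data known. Values per library are given for members called between genotypes and for the highest of each family per length, and of each partner list for at most 2 genes with the smallest adjusted p. Other genes named were chosen after their values were seen. The values of 1 member are not reported here or drawn, and it stays in the counts over all members.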

Additional observations from a re-analysis of the deposited data

How the results depend on the processing

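No paired analysis was possible because no replicate number could be tied to a recovered library. In RGCs, members called higher (7) and lower (8) in mKO became 2 and 3 with the GC trend removed and 0 and 4 with the reads-per-base trend removed as well. Those called lower were 4 with upper-quartile scaling, 3 with an unadjusted p under 0.05 and a fold of at least 1.5, and 17 without WT RGC library C and the GC trend. Leaving out 1 library gave 2 to 8 higher (2 without mKO RGC library A, B or C) and 4 to 17 lower (4 and 5 without mKO RGC library A or B, 17 without WT RGC library C), where 8.93% to 23.1% and 14.3% to 27.6% of all genes were called. In non-RGCs, members called higher (0) became 1 with total-read scaling and 2 with the unadjusted p and fold rule, and those called lower (8) became 3 with the GC trend removed, 5 with both trends removed, 5 with total-read scaling and 3 with upper-quartile scaling (2.18% of all genes). With both trends removed 0.809% of all genes were lower, and with the unadjusted p and fold rule 8.89% were higher (in RGCs 6.22% were lower). Leaving out 1 library gave 0 to 1 higher (1 without mKO or WT non-RGC library C) and 3 to 8 lower (3 without mKO or WT non-RGC library B), where 0.313% to 4.71% and 0.607% to 7.35% of all genes were called. Between WT fractions, members lower (3) became 5 with total-read scaling (27.3% of all genes), and leaving out 1 library gave 29 to 32 higher and 3 to 4 lower. The interaction was called for 0 members in each run.

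Sign changes in RGCs are given where the member was called with or without the change of setting. Without WT library C and the GC trend, the log2 fold changes were -0.55 for Cdh6, -0.30 for Cdh8, -0.50 for Cdh10, 0.25 for Cdh22, 0.14 for Cdh24, -0.30 for Cntnap2, -0.26 for Cntnap5a, -0.43 for Chl1 and -0.42 for Ncam2, of which all but that of Cdh24 were called. With both trends removed, they were -0.55 for Cdh10, which was called, and, uncalled, 0.041 for Cdh24, -0.066 for Cntn6, 0.067 for L1cam, 0.018 for Nrxn2, -0.020 for Nlgn1 and 0.071 for Nlgn2. With the GC trend alone removed, they were 0.0071 for Cdh22 and 0.054 for Cdh24, and with upper-quartile scaling 0.023 for Cdh11. The cause was not tested. The median of all genes moved to 0.12 and 0.20 in RGCs and to 0.15 and 0.14 in non-RGCs with total-read and upper-quartile scaling. The direction and side of the threshold held in every setting run for 2 of 15 called members in RGCs (Cdh2 and Ncam1), 2 of 8 in non-RGCs (Dscaml1 and Nrxn2) and 30 of 33 between fractions (not Cntnap5b, Nlgn1 and Nlgn2). Cdh17 and Cdh19 had too few reads for a test.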
